A study of Mus musculus with 4 samples.

Results

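The virus barcode assigned to the dorsomedial striatum (DMS) is 1 of the 5 projection barcodes of a MERGE-seq experiment on the ventromedial prefrontal cortex (vmPFC) of the mouse. Its UMI counts were taken for all 20047 annotated cells, out of 24788 cells in the barcode tables, and they were followed through 8 cell types and, for 8210 excitatory neurons, through 7 subtypes. A UMI is a random tag that marks a cDNA molecule ahead of amplification, and reads with the same tag in a cell are counted once. Male C57BL/6 mice had received, at 8 weeks of age, rAAV2-retro-EGFP viruses on 1 side of the brain, each with its own barcode, in the agranular insular cortex (AI), DMS, mediodorsal thalamus (MD), basolateral amygdala (BLA) and lateral hypothalamus (LH). Prelimbic and infralimbic tissue was dissociated from 3 mice without sorting, each giving 1 library, and from 3 further mice whose cells were pooled and FAC-sorted for EGFP, giving 1 library, to which "after sorting" refers throughout. All mice received all 5 viruses, so no library lacks the DMS virus. Every virus used the same short CAG promoter, which is active in many cell types, and neurons were therefore not chosen by the promoter. The sorted library has no replicate, and its gate selects on EGFP from any of the 5 viruses.

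Corticostriatal axons from the medial prefrontal cortex reach the DMS, a region of the striatum known for its role in goal-directed action. They arise from intratelencephalic neurons of several layers and from collaterals of neurons whose main axon goes on to the thalamus, the hypothalamus or the brainstem. A retrograde AAV taken up by such an axon is carried to the cell body, where the barcode is transcribed at the end of the EGFP message and can be read together with the transcriptome of the cell.

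The 5 designed barcodes are given here because all counts rest on telling them apart. The DMS barcode is written in lower case, and capitals in the others mark the positions at which they differ from it.
DMS: gaaggcacagacttt
AI: CTGCAcCGaCGcAtt
MD: gTTggcTGCAaTCCA
BLA: AaGACGCcGTCGCAA
LH: TaTTCGGAGgacGAC
Each barcode has 15 bases and lies in the virus, not in the mouse genome. The AI and MD barcodes differed from that of DMS at 10 positions, LH at 11 and BLA at 13, so that a read within the 2 mismatches allowed for DMS could not be as near to another barcode. The DMS barcode holds 7 G or C bases, fewer than the 8 or 9 of the others.

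The DMS barcode was the most frequent 15-base sequence in the reads of every library. It made up 53.8%, 55.9% and 58.3% of the barcode reads in unsorted mice 1, 2 and 3, and 44.5% after sorting. Of the reads given to it, 97.1% to 98.7% matched without a mismatch. Among reads with 1 mismatch, the most frequent change, counted from 1 at the 5′ end, was T14G in mouse 1, C6A in mouse 2 and A9C in mouse 3 and in the FAC-sorted library, with 5.63% to 11.3% of these reads. No single variant therefore took a large part of the DMS reads.

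The reads spread over UMIs unevenly. A DMS UMI had on average 33.3, 44.7 and 47.5 reads in mice 1, 2 and 3, and 43.8 after sorting, but the median was 1 read in each of them. UMIs seen in a single read made up 52.5% to 57.1% of all DMS UMIs and held 1.10% to 1.61% of the DMS reads. The count of DMS UMIs in a cell is thus in large part a count of UMIs read once. Whether each of them marks a molecule of its own was not tested. The same UMI was also found with another barcode of the same cell for 24.4% to 32.1% of the DMS UMIs.

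The libraries differed in depth in a way that bears on every count. There were 2542, 4115 and 4544 projectome reads per cell in mice 1, 2 and 3 and 14639 after sorting, and the annotated cells had a median of 6053.5, 6468.5, 6729 and 30189 transcriptome UMIs. Excitatory neurons made up 1611 of 1692 annotated FAC-sorted cells, and non-neuronal cells 73. Cells of 2 libraries carried the same cell barcode in 86 cases, and in 1 of these, between mouse 1 and the FAC-sorted library, DMS was above the threshold in both. Gene expression was not analysed here, so the deposited cell type names were used without a check of their markers.

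DMS UMIs were found in nearly every cell, neuronal or not. The deposited tables list a single DMS UMI as 0, so presence was taken from a recount of the reads. At least 1 DMS UMI was counted in 99.5% ± 0.213 (SD, n = 3) of the excitatory neurons of the unsorted mice and in 96.0% ± 2.86 of the microglia, which are not neurons and send no axon to the striatum. The median depth was 21548.5 transcriptome UMIs in these neurons and 4158 in the microglia. Once each cell was thinned to 3000 transcriptome UMIs, the shares were 94.6% ± 3.41 and 94.5% ± 4.19. Both shares are close to their upper end, and reads of the barcode library were not matched between the cells, so presence says little here. Shallower cells were left out of the thinned shares, which kept 6949 of 7194 excitatory neurons and 2300 of 2894 microglia of the unsorted mice.

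The level of the barcode did separate the cell types. In excitatory neurons the median was 18, 28 and 28 DMS UMIs in mice 1, 2 and 3 and 82 after sorting. Inhibitory neurons had medians of 8, 14 and 14 in the unsorted mice and 35.5 over the 8 cells of the FAC-sorted library. In microglia the medians were 3, 5 and 5, and 16 over 57 FAC-sorted cells. Oligodendrocytes and oligodendrocyte precursors had the same medians as microglia in the unsorted mice, astrocytes 3, 4 and 4, endothelial cells 2, 4 and 4 and activated microglia 4, 5 and 5. Among sorted cells the median was 24 over 11 oligodendrocytes and 39 over 4 precursors, and there was no astrocyte or endothelial cell. Every non-neuronal type of the unsorted mice thus lay below the inhibitory neurons, and these below the excitatory neurons, in each library. On the scale of log2(UMIs + 1), the median of excitatory neurons exceeded that of the pooled non-neuronal cells by 2.25, 2.27 and 2.27 in mice 1, 2 and 3 and by 2.21 after sorting. Excitatory neurons were thus higher in 4 of 4 libraries, the most extreme outcome of the exact sign-flip permutation test, which 2 of the 16 sign assignments of 4 libraries give (two-sided). Per 10000 transcriptome UMIs the difference was 0.31 in place of 2.25, also higher in 4 of 4 libraries.

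The order was not the same relative to the transcriptome of the cells. Per 10000 transcriptome UMIs, excitatory neurons of the unsorted mice held 20.6 ± 2.74 DMS UMIs (SD, n = 3), microglia 11.8 ± 3.27, oligodendrocyte precursors 12.3 ± 3.35, astrocytes 12.6 ± 3.57, endothelial cells 9.52 ± 2.23 and inhibitory neurons 9.93 ± 2.45. On this scale the mean of inhibitory neurons lay within the range of the non-neuronal means. The rate in the FAC-sorted library was 37.4 in excitatory neurons and 21.5 in microglia, or 1.82 times the unsorted mean in both. Each of these rates is pooled, as the sum of DMS UMIs over the sum of transcriptome UMIs of the cells. The median rate of single cells lay closer together, with 11.9 in excitatory neurons of the unsorted mice and 10.5 in microglia.

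The share of DMS among all barcode UMIs ran the other way. It was 63.0% ± 0.751 (SD, n = 3) in non-neuronal cells of the unsorted mice, 58.8% ± 2.07 in inhibitory neurons and 44.2% ± 0.710 in excitatory neurons. After sorting, the shares were 50.9%, 31.2% over 8 cells, and 41.9%. These shares use the deposited counts, which list a single UMI as 0 for DMS, MD, BLA and LH but not for AI. Barcodes with low counts lose more by this. In microglia of mouse 1 the mean deposited counts were 3.32 for DMS, 0.689 for MD, 0.558 for LH and 0.0456 for BLA. The effect on the shares was not tested.

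A neuron was called DMS-positive where its count was above 101 UMIs, the highest count that the authors set to 0 in their joined matrix. The deposited DMS label of all 8210 subtyped neurons followed this rule. Outside the excitatory neurons, 5 of 9822 non-neuronal cells passed it, 0.0509% (exact Clopper-Pearson 95% interval, 0.0165% to 0.119%), and 5 of 1420 inhibitory neurons, 0.352% (0.114% to 0.820%). These intervals cover counting error only. The paper derived each threshold from the 99.9th percentiles of non-neuronal cells and of EGFP-negative sorted cells, taking the higher value. The share of non-neuronal cells above it was therefore limited in advance and is no independent background rate. The 5 non-neuronal cells were 2 oligodendrocytes, 2 precursors and 1 endothelial cell, with 127 to 237 DMS UMIs and no other valid barcode, and 4 of them came from mouse 2. Of the 5 inhibitory neurons, 4 came from mouse 3, with 137 to 261 DMS UMIs. The one from the FAC-sorted library held 154 DMS UMIs beside 154 of AI, 146 of MD and 176 of LH. The 10 cells had 7409 to 46031 transcriptome UMIs, above the median of 4114 of the non-neuronal cells.

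The background was not the same in the 4 libraries. In non-neuronal cells the 99th percentile was 16, 27 and 24.4 DMS UMIs in mice 1, 2 and 3, and 71 over the 73 cells of the FAC-sorted library. The 99.9th percentile was 67.5, 120 and 67.9 in the unsorted mice. A threshold of 101 was thus above this percentile in mice 1 and 3 and below it in mouse 2. In the FAC-sorted library, 0 of 73 non-neuronal cells were above 101 UMIs. An approximate upper limit for this count is 3 cells, or 4.11%, and that of the exact two-sided 95% interval was 4.93%.

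Among the subtyped neurons, 194 of 2440, 216 of 2146 and 258 of 2119 were DMS-positive in mice 1, 2 and 3, and 574 of 1505 after sorting. The share was 10.1% ± 2.11 (SD, n = 3) without and 38.1% with sorting (exact Clopper-Pearson 95% interval, 35.7% to 40.6%). The 5% of cells with the most barcode UMIs in each library had been left out and have no subtype. Of these, 361 of 403, 371 of 372 and 362 of 362 were above 101 DMS UMIs in mice 1, 2 and 3. After sorting, 104 of 104 were. Shares of positive neurons, also by subtype, describe the neurons left by this filter, and its part in them was not tested. Of the excitatory neurons that had no subtype, 42 of 595 were positive, 7.06% (5.13% to 9.42%), at a median of 4780 transcriptome UMIs.

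The counts of neurons had no gap at the threshold. In the unsorted mice, 42.2%, 38.4% and 38.8% of the subtyped neurons had 11 to 25 DMS UMIs, and 12.6%, 16.6% and 16.3% had 51 to 101. After sorting, 49.2% of the neurons lay between 51 and 101 UMIs. Just outside the threshold, at 92 to 101 UMIs, were 223 neurons over the 4 libraries, and just inside it, at 102 to 111 UMIs, were 149. L6-Syt6 contributed 110 and 59 of these.

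The subtypes differed in their DMS counts, with L5-Bcl6 between the higher and the lower ones. L5-S100b neurons had a median of 45, 68 and 74 DMS UMIs in mice 1, 2 and 3, and 137 after sorting. For L2/3-Rorb the medians were 45, 49 and 83, and 134 after sorting. L6-Npy neurons had medians of 42, 54 and 60, and 85 after sorting. These 3 subtypes, 1 from each layer group, held the highest medians in every unsorted mouse. In L5-Bcl6 the medians were 31, 43.5 and 37, and 89 after sorting, above L6-Npy. L2/3-Calb1 had 16, 27 and 24, and 71.5 after sorting. L6-Syt6, the most numerous subtype with 4819 neurons, had 16, 26 and 26, and 77 after sorting. L5-Htr2c was lowest with 10, 17 and 18, and 41.5 over its 4 sorted neurons.

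Per 10000 transcriptome UMIs the same 3 subtypes led. L5-S100b held 39.8 ± 5.76 DMS UMIs (SD, n = 3), L2/3-Rorb 38.8 ± 4.33 and L6-Npy 35.7 ± 4.65 in the unsorted mice. L5-Bcl6 held 22.5 ± 1.46 and L2/3-Calb1 21.8 ± 3.00. L6-Syt6 held 13.6 ± 2.33 and L5-Htr2c 11.2 ± 3.00, beside the 11.8 ± 3.27 of microglia. Each of these subtypes differed from microglia by less than its SD between mice. By library, L6-Syt6 held 10.9, 15.3 and 14.5 in mice 1, 2 and 3 and 25.4 after sorting, and microglia held 8.07, 14.1, 13.3 and 21.5. On these pooled rates L6-Syt6 was thus above microglia in each library, by less than the step from either to L6-Npy. The median rate of single cells was 7.39, 11.5 and 11.1 in L6-Syt6 of mice 1, 2 and 3 and 22.2 after sorting. In microglia it was 7.17, 12.8 and 12.5, and 22.9 after sorting, so L6-Syt6 was lower in mice 2 and 3 and after sorting. Neither could therefore be placed above the other, and the difference was not tested.

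The share of DMS-positive neurons repeated this order. It was 34.7% ± 8.97 (SD, n = 3) in L5-S100b, with 24.5%, 38.2% and 41.4% in mice 1, 2 and 3, and 60.4% after sorting. L2/3-Rorb had 29.3%, 26.2% and 38.9%, and 63.3% after sorting. For L6-Npy the shares were 17.4%, 25.5% and 30.0%, and 38.3% after sorting. L5-Bcl6 had 5.56%, 11.7% and 16.7%, and 41.7% after sorting, from 5, 7, 10 and 25 positive neurons. For L2/3-Calb1 the shares were 5.83%, 11.2% and 11.6%, and 26.3% after sorting, from 6, 11, 11 and 10 neurons. L6-Syt6 had 1.68%, 2.66% and 2.62%, and 26.4% after sorting. In L5-Htr2c none of 316 neurons of the unsorted mice was positive, which allows a share of up to 0.949%, and 1 of 4 sorted neurons was.

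Neighbours in this order could not all be separated. L5-S100b and L2/3-Rorb overlapped over the unsorted mice, and L5-S100b was higher in 2 of 4 libraries. The ranges of L2/3-Rorb and L6-Npy also overlapped, although L2/3-Rorb was higher in 4 of 4 libraries. L5-Bcl6 and L2/3-Calb1 overlapped as well, with L5-Bcl6 higher in 3 of 4. The steps from L6-Npy to L5-Bcl6, from L2/3-Calb1 to L6-Syt6 and from L6-Syt6 to L5-Htr2c did not overlap in the unsorted mice. After sorting, however, L6-Npy was below L5-Bcl6 and L2/3-Calb1 below L6-Syt6, so that these 2 steps held in 3 of 4 libraries, and the last one in 4 of 4.

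Each subtype was set against all other subtyped neurons of the same library. L5-S100b was higher by 27.3 percentage points (mean of 4 libraries), L2/3-Rorb by 23.8 and L6-Npy by 12.1, each in 4 of 4 libraries. The L6-Npy difference was 10.6, 17.4 and 20.2 points in the unsorted mice but 0.156 in the FAC-sorted library, and it no longer had the same sign in all 4 libraries under 7 of the alternatives in the closing section. L6-Syt6 was lower by 15.1, 20.1 and 24.7 points in the unsorted mice and by 23.1 in the FAC-sorted library, and L5-Htr2c was lower in all 4. For these 5 subtypes this was the most extreme outcome of the two-sided exact sign-flip permutation test, with 2 of 16 sign assignments and a p of 0.175 after Benjamini-Hochberg adjustment over the 7 subtypes. L5-Bcl6 (3 of 4 libraries higher, mean 1.86 points) and L2/3-Calb1 (1 of 4 higher, mean −3.44 points) had an exact permutation p of 0.375. With 4 libraries none of these tests can reach 0.05. Counted per 10000 transcriptome UMIs, L2/3-Rorb led in place of L5-S100b, with a difference of 6.17 points against 2.01. This rule left 6, 5 and 6 positive L2/3-Rorb neurons in mice 1, 2 and 3 and 17 after sorting. In L5-S100b it left 4, 5 and 6, and 17 after sorting. The sign of L5-Bcl6 turned under 6 alternatives and that of L2/3-Calb1 under 4. Leaving out 1 library took L5-Bcl6 to 3.31 points without mouse 1 and to 0.945 without mouse 3, and L2/3-Calb1 to −0.54 without the FAC-sorted library, so neither subtype could be placed above or below the rest.

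A count above 101 did not always mean that DMS was the main barcode of the neuron. In L5-S100b, DMS was the barcode with the most UMIs in 375 of 392 positive neurons, in L2/3-Rorb in 176 of 187, in L6-Npy in 279 of 288 and in L2/3-Calb1 in 38 of 38. In L6-Syt6 it was so in 24 of 24, 22 of 36 and 12 of 34 positive neurons of mice 1, 2 and 3, and in 42 of 195 after sorting. MD was the highest barcode in 107 of those 195 sorted neurons and LH in 44. In L5-Bcl6, DMS was highest in 21 of 47 positive neurons and LH in another 21. When DMS also had to be the highest barcode, a rule chosen after seeing the data, the positive share of L6-Syt6 was 1.41% ± 0.423 (SD, n = 3) without and 5.68% with sorting. That of L5-S100b was 33.2% ± 8.17 and 57.6%.

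The FAC-sorted library had a higher DMS-positive share than each unsorted mouse, over all subtyped neurons and within each of the 7 subtypes. Over all, the difference from the unsorted mean was 28.1 percentage points, with an exact one-sided permutation p of 0.25, the smallest that 1 library against 3 allows. The ratio of the mean DMS count to that of the unsorted mice was 2.60 in subtyped neurons and 3.16 in microglia. The reads were then thinned to the number per cell of mouse 1, which kept 18.3% of the matched reads of the FAC-sorted library. With the threshold unchanged, 134 of its neurons were positive. The share was then 8.90%, against 7.95%, 7.22% and 7.98% in mice 1, 2 and 3. Within subtypes, the thinned share was 1.76% against 1.39% ± 0.303 (SD, n = 3) in L6-Syt6, 8.30% against 17.9% ± 1.51 in L6-Npy and 25.2% against 30.5% ± 5.21 in L5-S100b. The thinning equalised reads per cell of the table and not per neuron. When each library's threshold was scaled by the mean DMS count of its microglia, also chosen after seeing the data, it became 67.8, 119 and 116 UMIs in mice 1, 2 and 3 and 319 after sorting. The positive share was then 14.4%, 8.01% and 10.2%, and 5.58% after sorting, so the direction turned. The scale after sorting rests on the 57 microglia in the EGFP-sorted library, and barcode uptake of their own was not tested. The median mitochondrial share of UMIs was 3.47% after sorting and 6.46%, 6.45% and 6.44% in mice 1, 2 and 3, and it was lower after sorting in each of the 7 subtypes. Its part in the difference was not tested. The cells left out by the filter on barcode UMIs included 361, 371 and 362 with DMS above 101 UMIs in mice 1, 2 and 3. After sorting they included 104. Sorting, depth, background and this filter cannot be told apart in this design.

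Strength, the count within DMS-positive neurons, had its highest subtype median in L5-S100b in mice 2 and 3 and after sorting, and in L2/3-Rorb in mouse 1. The L5-S100b median was 152.5, 179 and 200 UMIs in mice 1, 2 and 3 and 218 after sorting, where the highest neuron had 620. L2/3-Rorb had medians of 170, 159.5 and 175, and 200 after sorting. L6-Npy had 146.5, 153 and 171, and 164 after sorting. L2/3-Calb1 had 157, 156 and 142, and 145.5 after sorting, and L5-Bcl6 had 121, 155 and 124.5, and 134 after sorting. In L6-Syt6 the medians were 157.5, 133 and 122, and 125 after sorting. Within 1.5 times of the threshold lay 45.8%, 63.9% and 79.4% of the positive L6-Syt6 neurons in mice 1, 2 and 3, and 75.9% after sorting. In L5-S100b these shares were 50.0%, 28.8% and 24.1%, and 25.6% after sorting. L6-Syt6 thus had more of its positive neurons near the threshold in 3 of 4 libraries but not in mouse 1, where it had 24 positive neurons. Above 202 UMIs, double the threshold, were 18.1%, 37.0% and 49.4% of the L5-S100b neurons, and 54.2% after sorting. Strength was also cut from above. Cells above 403.9, 486.2 and 529.3 barcode UMIs in mice 1, 2 and 3 and 1012.3 after sorting had been left out. Their median DMS counts were 325, 380 and 466.5, and 596 after sorting. The strongest cells are thus missing, and the libraries were cut at different heights.

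The difference in median log2 UMIs from the other positive neurons was 0.32 for L5-S100b (mean of 4 libraries, 3 higher), 0.17 for L2/3-Rorb (4 of 4 higher), −0.01 for L6-Npy (2 of 4 higher) and −0.35 for L6-Syt6 (1 of 4 higher). The L2/3-Rorb differences were 0.20, 0.0046 and 0.068 in mice 1, 2 and 3 and 0.42 after sorting, and the mean without the FAC-sorted library was 0.091. Without that library the L5-S100b mean was 0.21. For L2/3-Calb1 it was −0.13 over the 3 libraries with at least 10 positive neurons, and −0.058 without mouse 3. In the exact sign-flip permutation test, L2/3-Rorb had the most extreme outcome, 2 of 16 sign assignments, and p was 0.25 for L5-S100b, L6-Syt6 and L2/3-Calb1, and 1 for L6-Npy. L2/3-Rorb was no longer higher in all 4 libraries with exact matches only, at 0.15, or with shared UMIs given to 1 barcode, at 0.11 (exact permutation p 0.25 in both). After Benjamini-Hochberg adjustment over the 5 subtypes the smallest was 0.312. Per library, L6-Syt6 differed by 0.01 in mouse 1 but by −0.31, −0.52 and −0.58 in mice 2 and 3 and the FAC-sorted library. The sizes moved with the counting. For L5-S100b the mean was 0.21 per 10000 transcriptome UMIs, where L2/3-Rorb had 0.24, 0.19 with shared UMIs given to 1 barcode, 0.11 as a share of barcode UMIs and 0.058 for UMIs with at least 2 reads. For L6-Syt6 it ranged from −0.15 with shared UMIs given to 1 barcode to −0.72 as a share of barcode UMIs, and L2/3-Rorb had 0.066 on the latter scale.

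Positive neurons had larger transcriptomes than the other neurons of their library. The medians were 22014 against 20778 transcriptome UMIs in mouse 1, 22726 against 21608.5 in mouse 2, 23848.5 against 22522 in mouse 3 and 33642.5 against 29899 in the FAC-sorted library. Among the subtypes with at least 10 positive neurons in a library, the widest gap was that of the sorted L6-Syt6 neurons, with 40688 against 33314. The order was the other way round in L6-Npy of mouse 2, with 19215 against 19827.5, and in L5-Bcl6 of all 3 unsorted mice. Whether depth has a part in the calls of single neurons was not tested beyond the alternatives in the closing section.

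Of the 1242 DMS-positive neurons, 594 had DMS as their only valid barcode, meaning at most 28 UMIs of AI, 114 of MD, 35 of BLA and 103 of LH. These DMS-only neurons were 148 of 194, 114 of 216 and 107 of 258 positive neurons in mice 1, 2 and 3, or 76.3%, 52.8% and 41.5%, and 225 of 574 after sorting, or 39.2%. The SD between the 3 unsorted mice was 17.8 percentage points around a mean of 56.8%. Libraries with more reads per cell had the lower shares. After thinning all libraries to equal reads per cell, with the thresholds unchanged, the DMS-only shares were 76.3%, 78.1% and 66.3%, and 84.3% after sorting. Cells above 403.9, 486.2 and 529.3 barcode UMIs in mice 1, 2 and 3 and 1012.3 after sorting had been left out. Of these, 361, 371, 362 and 104 had DMS above 101 UMIs, and 22, 0, 0 and 0 were DMS-only. The limits rose in the order in which the shares fell. The shares thus describe the neurons left by this filter, and its part in them was not tested.

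By subtype, the DMS-only neurons were 191 of L5-S100b, 175 of L6-Npy, 109 of L2/3-Rorb, 74 of L6-Syt6, 30 of L2/3-Calb1, 14 of L5-Bcl6 and 1 of L5-Htr2c. L5-S100b made up 31.1% ± 1.02 (SD, n = 3) of the unsorted and 33.8% of the sorted DMS-only neurons. L6-Npy made up 30.1% ± 4.51 and 29.3%, L2/3-Rorb 18.7% ± 4.85 and 17.3%, and L6-Syt6 11.5% ± 4.40 and 13.3%. The sorted composition lay within the SD of the mice for L6-Npy, L2/3-Rorb and L6-Syt6. Among all positive neurons, L6-Syt6 made up 14.1% ± 2.28 without and 34.0% with sorting. Of all 6705 subtyped neurons of the unsorted mice, 676 were L5-S100b, 754 L6-Npy, 373 L2/3-Rorb and 4080 L6-Syt6. Of the 1505 sorted ones, 278, 277, 109 and 739 were.

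The share of DMS-only neurons among the positive ones was, for the subtypes with more than 1 positive neuron, highest in L2/3-Calb1 in every library, with 6 of 6, 9 of 11 and 8 of 11 in mice 1, 2 and 3 and 7 of 10 after sorting. In L6-Npy it was 80.4%, 59.0% and 48.0%, and 62.3% after sorting. In L2/3-Rorb it was 80.5%, 53.6% and 44.9%, and 56.5% after sorting. In L5-S100b it was 65.3%, 49.3% and 40.5%, and 45.2% after sorting. L6-Syt6 moved most, with 91.7%, 41.7% and 20.6%, and 15.4% after sorting. Mouse 1 thus had the highest share in each of these 5 subtypes.

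Against the other positive neurons of the same library, the DMS-only share was higher in 4 of 4 libraries in L6-Npy, by 12.9 percentage points on average, and in L2/3-Rorb, by 7.54. Each had the most extreme outcome of the exact sign-flip permutation test, 2 of 16 sign assignments, with a p of 0.312 after Benjamini-Hochberg adjustment over 5 subtypes. The FAC-sorted library had the largest difference in both, with 28.3 and 19.7 points, and without it the means were 7.78 and 3.49. L6-Npy turned sign under 4 alternatives and L2/3-Rorb under 1. Without a turn of the mean, L2/3-Rorb was no longer higher in 4 of 4 libraries under 4 further alternatives (0.725 to 4.78 points, exact permutation p 0.25 to 0.875), and L6-Npy under 2 (2.23 and 2.84 points, exact permutation p 0.5 and 0.75). In L2/3-Calb1 it was higher by 31.5 points in 3 of 3 libraries, with an exact permutation p of 0.25, the smallest for 3 libraries. The L2/3-Calb1 difference was 8.54 points at the 99th percentile, 10.7 with shared UMIs given to 1 barcode and 14.2 with the other barcodes at their 99.9th percentile, where it was no longer higher in every library (exact permutation p 0.5). L6-Syt6 was lower by 14.0 points on average and in 3 of 4 libraries, but higher by 17.5 in mouse 1 (exact permutation p = 0.375). Its mean was −24.5 points without mouse 1 and −6.61 without the FAC-sorted library, and it turned sign under 2 alternatives. With the thresholds at the non-neuronal 99.9th percentile it was −15.2 points and lower in 4 of 4 libraries. For L5-S100b the mean was −3.90 points (exact permutation p = 0.625), −8.04 without the FAC-sorted library and 0.638 without mouse 1.

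The positive neurons with a further barcode most often had AI. AI was valid in 21.6%, 40.7% and 54.7% of all positive neurons of mice 1, 2 and 3 and in 44.3% of the sorted ones. In L6-Syt6 AI was valid in 8.33%, 44.4% and 76.5% of the positive neurons of mice 1, 2 and 3, and in 49.7% after sorting. L5-S100b had 31.9%, 42.5% and 58.2%, and 50.0% after sorting, so neither was higher throughout. In L2/3-Rorb the AI shares were 19.5%, 42.9% and 53.1%, and 40.6% after sorting, and in L6-Npy 17.4%, 41.0% and 48.0%, and 34.0% after sorting. Over the 4 libraries BLA was valid in 11.0% of the L5-S100b neurons. In L5-Bcl6 the most frequent companion was LH, with 28 of 47. In L6-Syt6 MD was valid in 0 of 24, 15 of 36 and 22 of 34 positive neurons of mice 1, 2 and 3 and AI in 2, 16 and 26. After sorting MD was valid in 132 of 195 and AI in 97, so that MD was the more frequent companion only there. All 20 neurons in which all 5 barcodes were valid came from the FAC-sorted library, and 14 of them were L6-Syt6. Such a neuron has to pass all 5 thresholds at once, which takes a high total of barcode UMIs. Neurons with totals above 403.9, 486.2 and 529.3 in mice 1, 2 and 3 had been left out, against 1012.3 after sorting. This filter left less room for such neurons in the unsorted mice, and its part in their absence there was not tested.

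The other barcodes were not absent from DMS-only neurons. Their median counts were 18 UMIs of AI, 40.5 of MD, 9 of BLA and 30 of LH. In 274 of the 594 the AI count lay within 1.5 times of its threshold, whereas MD was that near in 36, LH in 19 and BLA in 13. In L5-Bcl6 the median of LH in the 14 DMS-only neurons was 75.5, compared with 26 to 33.5 in the 5 other subtypes that had more than 1 such neuron. Over all subtyped neurons, the median AI count was 19, 26 and 30.5 in DMS-positive neurons of mice 1, 2 and 3 and 27 after sorting, against 3, 4, 4 and 9 in the other neurons. In DMS-positive neurons, 63.7%, 58.0% and 58.2% of the UMIs of the other 4 barcodes in mice 1, 2 and 3 were also read with the DMS barcode, with more DMS reads. After sorting, 34.2% were. When a shared UMI was counted only for the barcode that had most of its reads, 83.5% of the positive neurons were DMS-only, in place of 47.8%. The thresholds set on all UMIs were kept, so losing UMIs could only make another barcode valid less often. The size of this rise therefore gives no corrected share. The DMS-only share thus moved with the way shared UMIs were counted.

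As counted, DMS-only neurons had lower median DMS counts than the other positive neurons in each unsorted mouse. The medians were 155 against 160 UMIs in mouse 1, 152.5 against 170.5 in mouse 2 and 145 against 194 in mouse 3. After sorting they were 154 against 150. The mean difference was −0.15 in log2 UMIs, lower in 3 of 4 libraries, with an exact two-sided sign-flip permutation p of 0.25. It was −0.056 without mouse 3, and it turned to 0.023 per 10000 transcriptome UMIs, 0.060 for UMIs with at least 2 reads and 0.19 with shared UMIs given to 1 barcode, so no direction could be given. The share of barcode UMIs is no comparison here, since the definition of DMS-only sets it. Within L5-S100b the DMS-only neurons were lower in every library, with 145 against 164, 166 against 215 and 178.5 against 227 in mice 1, 2 and 3, and 168.5 against 306.5 after sorting. L6-Npy gave 145 against 165, 145 against 171 and 135 against 195, and 147 against 240. In L6-Syt6 the order was the opposite in 3 libraries, with 134 against 118 in both mouse 2 and mouse 3 and 136 against 124 after sorting. L2/3-Rorb had the opposite order in mouse 1 only, with 172 against 148. Its medians were 158 against 196 in mouse 2, 143 against 206 in mouse 3 and 158 against 326 after sorting. The subtypes thus differed in this respect, which was not tested. In L5-S100b the DMS-only neurons also had fewer transcriptome UMIs in every library. The medians were 23491 against 28157, 24535.5 against 28403 and 25614.5 against 26892 in mice 1, 2 and 3, and 31590.5 against 37233 after sorting. These counts within subtypes are raw and were not set against depth.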

How the data were processed

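Projectome libraries of vmPFC cells from 3 unsorted mice and 1 FAC-sorted pool were analysed. The deposited read tables list cell barcode, UMI and 15-base tag per read. The authors made the deposited UMI counts per cell and barcode with a modified deMULTIplex, allowing 2 mismatches, without normalization. In the joined matrix they set counts up to a threshold to 0 and left out the 5% of cells with the most barcode UMIs per library, which the methods describe as possible doublets or PCR bias. The methods also exclude cells with very many genes or counts as potential doublets, and no doublet caller was run here. Thresholds were read from this matrix. The deposited annotation gave transcriptome UMI counts, the percent of mitochondrial UMIs, cell types and subtypes, and 31 other columns were not used. The submitters' processing notes name Cell Ranger and mm10.

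Reads were matched by Hamming distance and UMIs were recounted. The recount equalled the DMS column except where a single UMI was listed as 0, in 854, 423 and 449 cells of mice 1, 2 and 3 and in 2 FAC-sorted cells. Intervals of shares are exact Clopper-Pearson 95% intervals. The limit for a share with no cell is given as 3 cells of the total, an approximation, beside the exact limit. Cells are not replicates. Means and SD are over 3 mice, and differences within libraries were tested by exact sign-flip permutation (two-sided) across libraries, with Benjamini-Hochberg adjustment. A subtype needed 10 positive neurons in at least 3 libraries for tests of strength and of the DMS-only share. All 5 barcodes, 8 cell types and 7 subtypes were named by rule, and no gene was tested. The members and lists were chosen with earlier results of these data known. Alternatives were other thresholds, counts per 10000 transcriptome UMIs, other UMI rules, thinned reads, other neuron sets and libraries left out. The code recovered 19 of 19 known answers, on simulated data or fixed inputs, within set tolerances. The tolerance for subtype differences was wider than the differences of L5-Bcl6 and L2/3-Calb1, and no difference between libraries was simulated. Python 3.11.15, numpy 2.4.6, pandas 2.3.3 and scipy 1.17.1 were used.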

Additional observations from a re-analysis of the deposited data

Results flagged for a closer look

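The DMS-only share of L5-S100b, set against the other positive neurons, had one sign in all unsorted mice (−17.5, −5.23 and −1.39 percentage points) and the other in the FAC-sorted library (8.54). The difference in log2 strength between DMS-only and other positive neurons was likewise −0.046, −0.16 and −0.42 in mice 1, 2 and 3 and 0.038 after sorting. Neither difference between sorted and unsorted libraries was tested.

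Reads in which the DMS barcode was displaced by 1 or 2 bases, which enter no count, numbered 101634, 164163 and 183573 in mice 1, 2 and 3, and 121304 after sorting. They equalled 1.02% to 1.06% of the DMS reads in each library, and 86.1% to 87.1% of them were displaced by 1 base in the same direction.

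The 5% of cells with the most barcode UMIs in each library, which have no annotation, held DMS above 101 UMIs in 1198 of 1241 cases, and 22 of them were DMS-only, all in mouse 1. Another 57 of 3500 cells without annotation were above the threshold.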

How the results depend on the processing

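No paired analysis was possible because the sorted group has 1 library and its number does not tie it to a mouse. The DMS-positive share of subtyped neurons, 15.1% over all libraries, was 61.1% with the non-neuronal 99th percentile as threshold, 20.8% at the 99.9th, 8.00% at 1.5 times the threshold and 1.38% for UMIs per 10000 transcriptome UMIs. It was 3.87% for UMIs with at least 2 reads, 11.7% with shared UMIs given to 1 barcode, 7.94% with thinned reads, 10.0% with thresholds scaled by microglia and 12.1% where DMS had to be the highest barcode. Leaving out 1 library gave 9.96% (without the FAC-sorted library) to 18.2% (without mouse 1). Under the first 7 of these, the DMS-only share, 47.8% as reported, was 8.95%, 23.5%, 70.6%, 71.7%, 81.8%, 83.5% and 75.8%, and it was 19.9% with the other barcodes at their 99.9th percentile. Leaving out 1 library gave 42.6% to 55.2%. The thresholds were not reset for UMIs with at least 2 reads, shared UMIs given to 1 barcode or thinned reads. Fewer UMIs thus made each barcode valid less often by rule.

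The differences of L5-S100b, L2/3-Rorb, L6-Npy, L6-Syt6 and L5-Htr2c in the positive share kept the sign of their mean under all alternatives run. L6-Npy no longer had the same sign in all 4 libraries (exact permutation p 0.25 to 0.375) at the 99th and 99.9th percentiles, per 10000 transcriptome UMIs, for exact matches, for UMIs with at least 2 reads, with thinned reads and with scaled thresholds. The same held for L6-Syt6 at the 99th percentile and L5-Htr2c at 1.5 times the threshold. Per 10000 transcriptome UMIs, 3 to 9 neurons of each of L2/3-Rorb, L6-Npy and L5-S100b were positive in an unsorted mouse. Their positive shares were 4.57% ± 0.253 (SD, n = 3), 2.57% ± 1.33 and 2.37% ± 0.915, in this order. The difference of L5-Bcl6 turned to −3.40 percentage points at 1.5 times the threshold, −1.33 per 10000 transcriptome UMIs and −2.88 for UMIs with at least 2 reads. It was −4.59 with shared UMIs given to 1 barcode, −2.55 with thinned reads and −5.08 where DMS had to be highest. That of L2/3-Calb1 turned to 0.56 per 10000 transcriptome UMIs, 0.61 with shared UMIs given to 1 barcode, 0.50 with scaled thresholds and 0.52 where DMS had to be highest. The difference of the FAC-sorted library turned to −5.28 points with scaled thresholds.

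In the DMS-only share, the 99th percentile turned L2/3-Rorb to −3.80, L6-Npy to −3.30 and L6-Syt6 to 4.10 points, 1.5 times the threshold turned L6-Npy to −1.60 and thinned reads to −1.25, UMIs with at least 2 reads turned L5-S100b to 5.72 and L6-Npy to −6.55, and shared UMIs given to 1 barcode turned L6-Syt6 to 3.37. Leaving out 1 library gave −8.04 to 0.638 points for L5-S100b, the latter without mouse 1. In strength, L6-Npy turned to 0.18 per 10000 transcriptome UMIs and 0.065 as a share of barcode UMIs, was −0.16 with shared UMIs given to 1 barcode, and ranged from −0.054 to 0.034 with 1 library left out. L2/3-Calb1 turned to 0.12 as a share of barcode UMIs, and was −0.00043 per 10000 transcriptome UMIs and −0.25 with shared UMIs given to 1 barcode. DMS-only against other positive neurons turned to 0.023, 0.41, 0.060 and 0.19 per 10000 transcriptome UMIs, as a share of barcode UMIs, for UMIs with at least 2 reads and with shared UMIs given to 1 barcode, the 0.41 being set by the definition of DMS-only. The excitatory excess over non-neuronal cells kept its sign under all 7 alternatives, but was 0.31 per 10000 transcriptome UMIs, with 1.97 to 2.84 under the others. Thresholds scaled by microglia and DMS as the highest barcode were chosen after seeing the data. The causes were not tested.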
